A study of Homo sapiens with 8 samples.

Results

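Messenger RNA of the translation initiation and elongation factors was examined in the presence and absence of overexpressed MYC and of Zab in U2OS, a long-established cell line from a human osteosarcoma. Of the 19414 genes in the count tables, 68 were taken by their symbols alone. These are the genes whose names start with EIF1 to EIF6, EEF1 or EEF2, together with the release factor genes ETF1 and GSPT1. The kinase genes EIF2AK1 to EIF2AK4 and the Y-linked EIF1AY were left out by the same rule. No measured value entered this rule, but the rule was set with earlier results of these data known.

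Total RNA was extracted with Trizol and sequenced from 4 groups of 2 libraries each: Zab with overexpressed MYC (Zab+MYC), overexpressed MYC alone (MYC), Zab alone (Zab), and cells with neither (WT). Zab is short for Zαβ, a name commonly given to the part of ADAR1, an enzyme that edits RNA, which binds nucleic acids in the Z form. The labels name neither the vector nor the promoter, and they say neither that a line is 1 clone nor that the libraries of 1 group are from different cultures. P-values therefore rest on differences between libraries that may be technical in origin.

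Translation of most messenger RNAs starts when the cap-binding complex eIF4F, made of eIF4E, the scaffold eIF4G and the helicase eIF4A, brings a ribosomal subunit to the 5′ end. That subunit carries eIF3, eIF1, eIF1A, eIF5 and the ternary complex of eIF2, GTP and initiator tRNA, and scans to the start codon. After subunit joining, eEF1A delivers aminoacyl-tRNAs and eEF2 moves the ribosome by a codon at a time, until the release factors eRF1 and eRF3 end synthesis at a stop codon. MYC is a transcription factor that binds, with its partner MAX, to the E-box sequence CACGTG, and genes of ribosome production and translation are among its well-known targets.

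The E-box was looked for in the reference promoters of these genes, since the MYC comparisons ask about their RNA. RefSeq promoter windows on GRCh38.p14, from 250 bases before to 50 bases after the annotated start, were matched by symbol for 54 of the 68 genes. CACGTG, which reads the same on both strands and overlaps no other motif searched, was in 14 of the 54 windows (25.9%). Among windows of the same length it was in 1407 of the 15843 protein-coding genes (8.88%) and in 2030 of all 27305 promoters (7.43%). EEF1AKMT4 and its readthrough gene EEF1AKMT4-ECE2 share 1 window and are counted as 2 of the 14. The 250 bases before the start are shown for the 3 genes with the motif and the largest rise in MYC cells, EIF2B3, EIF5A2 and EIF4A3, and for the cap-binding protein EIF4E and the scaffold EIF4G1, which have the motif at 2 places. Each sequence is the gene's own strand, 5′ to 3′, with CACGTG in capitals.
EIF2B3: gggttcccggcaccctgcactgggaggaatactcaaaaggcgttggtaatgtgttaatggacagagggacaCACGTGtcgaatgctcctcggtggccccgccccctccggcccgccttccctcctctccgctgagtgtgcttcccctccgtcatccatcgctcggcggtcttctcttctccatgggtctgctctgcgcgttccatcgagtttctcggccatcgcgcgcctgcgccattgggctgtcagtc
EIF5A2: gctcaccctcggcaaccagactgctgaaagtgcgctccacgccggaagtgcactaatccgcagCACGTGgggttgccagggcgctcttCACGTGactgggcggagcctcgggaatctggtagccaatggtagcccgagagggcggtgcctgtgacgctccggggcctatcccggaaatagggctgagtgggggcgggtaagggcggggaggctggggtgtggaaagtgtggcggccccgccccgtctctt
EIF4A3: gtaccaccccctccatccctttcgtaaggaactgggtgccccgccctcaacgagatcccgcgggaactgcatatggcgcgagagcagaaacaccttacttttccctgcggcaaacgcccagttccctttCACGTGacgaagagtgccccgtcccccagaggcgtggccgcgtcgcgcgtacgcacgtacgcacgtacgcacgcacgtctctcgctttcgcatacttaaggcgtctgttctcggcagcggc
EIF4E: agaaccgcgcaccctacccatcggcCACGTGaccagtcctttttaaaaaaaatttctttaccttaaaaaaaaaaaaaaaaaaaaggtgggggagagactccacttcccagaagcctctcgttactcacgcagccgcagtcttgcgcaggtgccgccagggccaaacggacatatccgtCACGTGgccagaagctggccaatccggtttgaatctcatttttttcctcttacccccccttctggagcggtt
EIF4G1: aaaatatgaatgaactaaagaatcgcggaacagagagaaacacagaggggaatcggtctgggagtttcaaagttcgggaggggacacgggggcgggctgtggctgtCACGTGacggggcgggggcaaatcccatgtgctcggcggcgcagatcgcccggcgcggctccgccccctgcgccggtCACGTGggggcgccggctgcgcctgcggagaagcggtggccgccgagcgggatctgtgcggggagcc
They lie at chr1:44986596-44986845 (EIF2B3, minus strand), chr3:170908638-170908887 (EIF5A2, minus strand), chr17:80147129-80147378 (EIF4A3, minus strand), chr4:98929134-98929383 (EIF4E, minus strand) and chr3:184314356-184314605 (EIF4G1, plus strand), all on GRCh38.p14. The first base of the motif stood at −179 in EIF2B3, at −187 and −162 in EIF5A2, at −121 in EIF4A3, at −225 and −72 in EIF4E, and at −144 and −67 in EIF4G1, counted from the annotated start. Of the matched genes that were tested, 8 of 12 with the motif and 27 of 35 without it were called higher in MYC than in WT cells. Their median log2 fold changes were 0.65 with the motif and 0.80 without it. These windows are reference sequence, and no binding was measured.

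Tags in exons numbered 686991.5 to 1326166.5 per library. The introduced genes followed their labels in part. MYC had 707 and 705 CPM in Zab+MYC libraries, 1237 and 1289.6 CPM in MYC libraries, 229.5 and 194 CPM in Zab libraries, and 72.6 and 94.8 CPM in WT libraries. MYC RNA was thus lower in Zab+MYC than in MYC libraries, and higher in Zab than in WT libraries, with no overlap. ADAR had 1068 and 1018 CPM in Zab+MYC libraries, 247 and 230.4 CPM in MYC libraries, 6003 and 6198 CPM in Zab libraries, and 264 and 269.6 CPM in WT libraries. ADAR, the gene that Zab derives from, was highest in Zab libraries and between Zab and MYC libraries where both were introduced. Of the mesenchymal and osteoblast markers VIM, COL1A1 and SPARC were present in every library, TWIST1 was at 0 in all 8, and COL1A2, ALPL and BGLAP were at or near 0. Of the epithelial markers KRT8 and KRT18 were present, and EPCAM, CDH1 and KRT19 stayed at or below 5.05 CPM, while the summed blood markers stayed at or below 2.92 CPM and the summed endothelial markers at or below 5.02 CPM. The 2 libraries of a group differed over genes by no more than sampling noise in the Zab+MYC, MYC and Zab groups (chi-square per degree of freedom 0.997 to 1.005) and by little more in WT (1.025). Their shares of tags in exons did differ beyond counting error in every group (Fisher's exact test, p = 0.0020, 4.5e-04 and 1.4e-05 in the Zab+MYC, MYC and Zab groups and 4.5e-16 in WT), so they were kept as 2 libraries. A gap in exon share does not show that the 2 libraries came from different cultures. As their spread over genes is close to counting noise, the p-values may not cover variation between cultures. With so small a spread, differences of a few percent can pass the test, and sizes are given beside every call.

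Values below are in CPM, that is, tags recovered from the deposited values and scaled to a common library total with TMM factors. The deposited values carry 1 factor per library that the sources used here do not explain. A folder in the file headers is named for a spike-in and a Drosophila build is among those listed. If the factor came from a spike-in, the deposited scale would be the one relative to it, and TMM values, which assume that most genes do not change, would not show a shift common to all genes, so the results that turn on the scale are given on both. Fold changes were computed on log2(CPM + 2). A gene was called when its adjusted p was under 0.05 in limma, two-sided, with Benjamini-Hochberg adjustment over the 9673 genes that passed the filter on low values. Of the 68 genes 60 passed that filter. The other 8 were EEF1AKMT1, EEF1AKMT2, EEF1AKMT4-ECE2, EIF2S3B, EIF4E1B, EIF4E3, EIF4EBP3 and EIF5AL1.

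Most translation factors were higher in cells with overexpressed MYC. Of the 60 tested, 45 rose and 3 fell in MYC against WT cells, where 27.8% of all genes tested were called higher and 30.4% lower. Their median log2 fold change was 0.78, against −0.04 over all genes tested, and 40 of them were higher and 1 lower by at least 1.5-fold, where 22.5% and 26.7% of all genes tested were. On the scale as deposited 45 were called higher and 6 lower, EEF1A1, EEF1G and EEF2 being the added ones, against 26.1% and 32.7% of all genes tested. All 68 genes together took 2.58% ± 0.0170 of the exon tags in Zab+MYC libraries, 2.82% ± 0.00370 in MYC libraries, 2.31% ± 0.000878 in Zab libraries and 2.24% ± 0.0122 in WT libraries (SD, n = 2 each). The mean level was highest in the MYC group for 43 of the 60 genes and lowest in the WT group for 42. These orders were not counted over all genes, so how particular they are to the members is not shown. The 3 genes that fell were EIF4EBP2, EIF4G3 and EIF3L, and that count was 1 without MYC replicate 1. The exonic share of tags also moved with the groups, at 69.1% in Zab+MYC, 76.0% in MYC, 60.8% in Zab and 70.9% in WT libraries, and 4 of the 5 mesenchymal markers tested were lower in MYC than in WT cells, their sum over all 9 listed running from 5308 to 5462 CPM in MYC and from 10101 to 10288 CPM in WT libraries. The part of either in these results was not tested. In the complexes and lists below that had no call in a direction by limma on the TMM scale, at most 1 gene had an unadjusted p under 0.05 in that direction, edgeR called at most 1 and DESeq2 called 0.

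**Figure D1:**
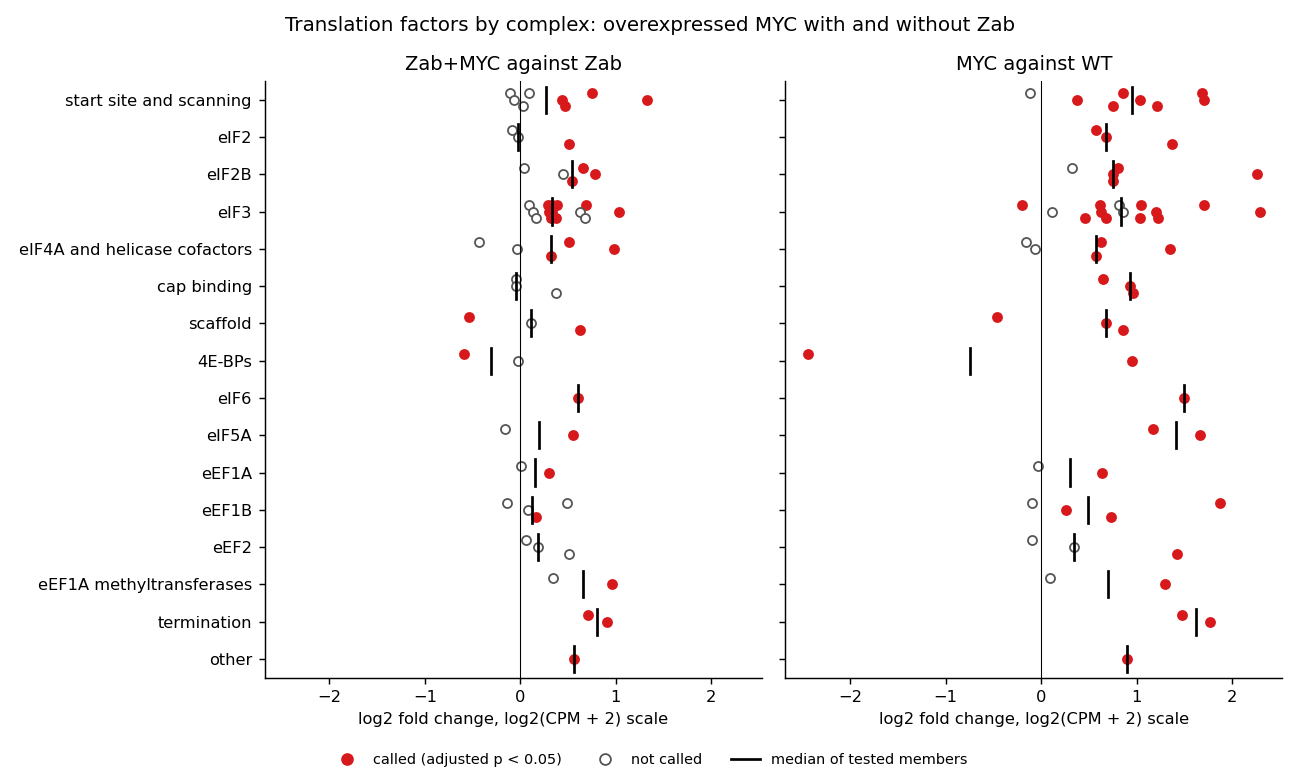
Log2 fold change of each tested translation factor, by complex, for Zab+MYC against Zab (left) and MYC against WT (right). Filled points passed the test, open points did not, and bars mark the median of the tested members. With 45 genes called higher on the right and 29 on the left, most points lie above 0 in both panels, and EIF4EBP2 among the 4E-BPs lies far below 0 at the right.

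Most subunits of eIF2 and of its exchange factor rose. All 3 subunits of eIF2, which brings the initiator tRNA, and 4 of the 5 subunits of eIF2B, which reloads eIF2 with GTP, were called higher in MYC than in WT cells. EIF2S1, the eIF2 alpha subunit that stress kinases phosphorylate, had 286 and 297 CPM in Zab+MYC libraries, 414 and 369.6 CPM in MYC libraries, 187 and 223 CPM in Zab libraries, and 149.5 and 152 CPM in WT libraries. The 4 groups did not overlap, in the order MYC, Zab+MYC, Zab, WT. Its log2 fold change in MYC against WT was 1.37 ± 0.101 (SE), limma adjusted p = 7.7e-20. EIF2S2, the beta subunit, had 302 and 302 CPM in Zab+MYC libraries, 359 and 365 CPM in MYC libraries, 312 and 302 CPM in Zab libraries, and 266 and 219.8 CPM in WT libraries. EIF2S3, the gamma subunit that binds GTP and the tRNA, had 58.4 and 83.6 CPM in Zab+MYC libraries, 84.5 and 94.8 CPM in MYC libraries, 75.3 and 73.4 CPM in Zab libraries, and 54.9 and 55.1 CPM in WT libraries. In both genes the MYC libraries were highest and the WT libraries lowest, without overlap, and the rises were 0.58 for EIF2S2 and 0.68 for EIF2S3. EIF2B3, the eIF2B gamma subunit, which pairs with the catalytic epsilon subunit, had 84.7 and 80.1 CPM in Zab+MYC libraries, 134 and 149.5 CPM in MYC libraries, 58.1 and 53.9 CPM in Zab libraries, and 39.7 and 19.6 CPM in WT libraries. The groups did not overlap, and the 2 WT libraries lay further apart than those of any other group. The rise in EIF2B3 (chr1:45316194-45452267 on hg19, minus strand) was 2.26 ± 0.197 (SE), limma adjusted p = 1.7e-16, the largest of the eIF2B subunits. EIF2B1 had 139 and 134 CPM in Zab+MYC libraries, 123 and 141 CPM in MYC libraries, 88.9 and 69.8 CPM in Zab libraries, and 72.6 and 82.6 CPM in WT libraries. EIF2B2 had 99.3 and 92.1 CPM in Zab+MYC libraries, 82.2 and 96.8 CPM in MYC libraries, 68.9 and 52.02 CPM in Zab libraries, and 55.5 and 48.7 CPM in WT libraries. In these subunits of the regulatory part both groups with overexpressed MYC lay above both without it, with rises of 0.75 and 0.76 in MYC against WT, and EIF2B4 had 0.32 and was not called. EIF2B5, the catalytic subunit, had 69.1 and 59.5 CPM in Zab+MYC libraries, 54.2 and 70.98 CPM in MYC libraries, 61.7 and 63.03 CPM in Zab libraries, and 47.3 and 25.4 CPM in WT libraries. It rose by 0.80, and 1 of the 2 WT libraries lay well below the rest. The EIF2B5 call in this comparison was lost without WT replicate 2 (log2 fold change 0.38, limma adjusted p = 0.17). The EIF2B5 value in this comparison was 1.22 without WT replicate 1. Where Zab was present, the log2 fold changes in Zab+MYC against Zab were 0.78 for EIF2B1, 0.66 for EIF2B2 and 0.54 for EIF2B3, all called. The EIF2B2 call in Zab+MYC against Zab was lost without Zab+MYC replicate 1 or Zab replicate 2 (log2 fold change 0.46 to 0.61, limma adjusted p = 0.053 to 0.1). The EIF2B3 call in Zab+MYC against Zab was lost without Zab+MYC replicate 1, Zab+MYC replicate 2, Zab replicate 1 or Zab replicate 2 (log2 fold change 0.49 to 0.59, limma adjusted p = 0.078 to 0.2).

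Start codon selection showed the same direction. Of the 8 genes of this group 7 were called higher in MYC than in WT cells and 0 lower. EIF1AX, the X-linked eIF1A gene, whose product steadies the scanning ribosome, had 89.5 and 97.1 CPM in Zab+MYC libraries, 143 and 127 CPM in MYC libraries, 23.7 and 53.9 CPM in Zab libraries, and 41.01 and 38.7 CPM in WT libraries. Both groups with overexpressed MYC were above both without it, and Zab and WT libraries overlapped. The log2 fold change was 1.71 ± 0.204 (SE), limma adjusted p = 3.4e-11, and 1.33 ± 0.204 (SE), limma adjusted p = 2.7e-07 where Zab was present. The EIF1AX value in Zab+MYC against Zab was 0.77 without Zab replicate 1. EIF5, which triggers GTP hydrolysis by eIF2, had 269.6 and 280.0 CPM in Zab+MYC libraries, 369.9 and 356 CPM in MYC libraries, 205 and 190.3 CPM in Zab libraries, and 106 and 118 CPM in WT libraries. The groups again followed the order MYC, Zab+MYC, Zab, WT without overlap, and EIF5 (chr14:103800574-103811361 on hg19, plus strand) rose by 1.68 ± 0.105 (SE), limma adjusted p = 1.1e-23. EIF5B, the GTPase that joins the ribosomal subunits, had 344 and 382 CPM in Zab+MYC libraries, 502 and 509 CPM in MYC libraries, 273 and 260.1 CPM in Zab libraries, and 223 and 211 CPM in WT libraries. Its rise was 1.21 ± 0.0879 (SE), limma adjusted p = 2.6e-20. EIF1, which guards the choice of start codon, had 413 and 419 CPM in Zab+MYC libraries, 439 and 469 CPM in MYC libraries, 462 and 412 CPM in Zab libraries, and 377 and 325 CPM in WT libraries. It had the highest level per kilobase of this group in WT cells and rose by 0.37. EIF1AD, a relative of eIF1A, had 36.5 and 38.3 CPM in Zab+MYC libraries, 52.3 and 51.9 CPM in MYC libraries, 30.8 and 39.8 CPM in Zab libraries, and 18.9 and 31.3 CPM in WT libraries. It rose by 1.04, from WT libraries that differed from each other by more than those of any other group. EIF2A and EIF2D, which take part in noncanonical initiation, rose by 0.86 and 0.76. EIF1B, the EIF1 paralog, had −0.12 and was not called.

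Among the 14 genes of eIF3, the scaffold that holds the scanning complex together, 10 rose, 1 fell and 3 were not called. EIF3B, a core subunit, had 1002 and 1106 CPM in Zab+MYC libraries, 1533 and 1537 CPM in MYC libraries, 674 and 637 CPM in Zab libraries, and 473 and 464 CPM in WT libraries. None of the 4 groups overlapped. EIF3B (chr7:2394462-2420377 on hg19, plus strand) rose by 1.71 ± 0.0583 (SE), limma adjusted p = 6.4e-39. EIF3J, a loosely bound subunit that sits at the mRNA entry channel, had 152 and 151 CPM in Zab+MYC libraries, 259.7 and 274 CPM in MYC libraries, 70.3 and 75.3 CPM in Zab libraries, and 42.9 and 65.2 CPM in WT libraries. It had the largest rise of all 60 genes in MYC cells, 2.29 ± 0.148 (SE), limma adjusted p = 9.2e-23, a 4.89-fold difference. EIF3A, the largest core subunit, had 859 and 782 CPM in Zab+MYC libraries, 1070.4 and 1006 CPM in MYC libraries, 674 and 587 CPM in Zab libraries, and 509 and 501 CPM in WT libraries. EIF3E had 630.1 and 595 CPM in Zab+MYC libraries, 907 and 895 CPM in MYC libraries, 557 and 563 CPM in Zab libraries, and 399 and 474 CPM in WT libraries. Both followed the order MYC, Zab+MYC, Zab, WT without overlap, and rose by 1.04 and 1.05. EIF3G, which binds RNA and sits with EIF3B and EIF3I in a module of the complex, had 257 and 252 CPM in Zab+MYC libraries, 270.4 and 293 CPM in MYC libraries, 207 and 201 CPM in Zab libraries, and 132 and 112 CPM in WT libraries. EIF3M had 262 and 260.1 CPM in Zab+MYC libraries, 372 and 366 CPM in MYC libraries, 184 and 219 CPM in Zab libraries, and 169 and 146 CPM in WT libraries. The same order held for this pair, which rose by 1.20 and 1.22. EIF3K, the subunit with the highest level per kilobase in WT cells, had 398 and 376 CPM in Zab+MYC libraries, 433 and 471 CPM in MYC libraries, 308 and 305 CPM in Zab libraries, and 282 and 306 CPM in WT libraries. It rose by 0.62, and EIF3I, EIF3D and EIF3H rose by 0.68, 0.63 and 0.46. EIF3F, a subunit with an MPN domain, had 0.11 and was not called. EIF3L, which pairs with EIF3K in the complex, had 536 and 525 CPM in Zab+MYC libraries, 465 and 476 CPM in MYC libraries, 459.8 and 487 CPM in Zab libraries, and 504 and 581 CPM in WT libraries. The ranges of Zab+MYC and WT libraries overlapped, as did those of MYC and Zab libraries. EIF3L fell in MYC against WT cells, with a log2 fold change of −0.20 ± 0.0733 (SE), limma adjusted p = 0.015. The EIF3L call in this comparison was lost without MYC replicate 1 or WT replicate 2 (log2 fold change −0.10 to −0.18, limma adjusted p = 0.094 to 0.35). The EIF3L value in this comparison was −0.30 without WT replicate 1. EIF3C and EIF3CL are near-identical genes whose reads cannot be told apart, so their values, which ran from 5.51 to 16.7 CPM over the libraries, are uncertain.

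**Figure D2:**
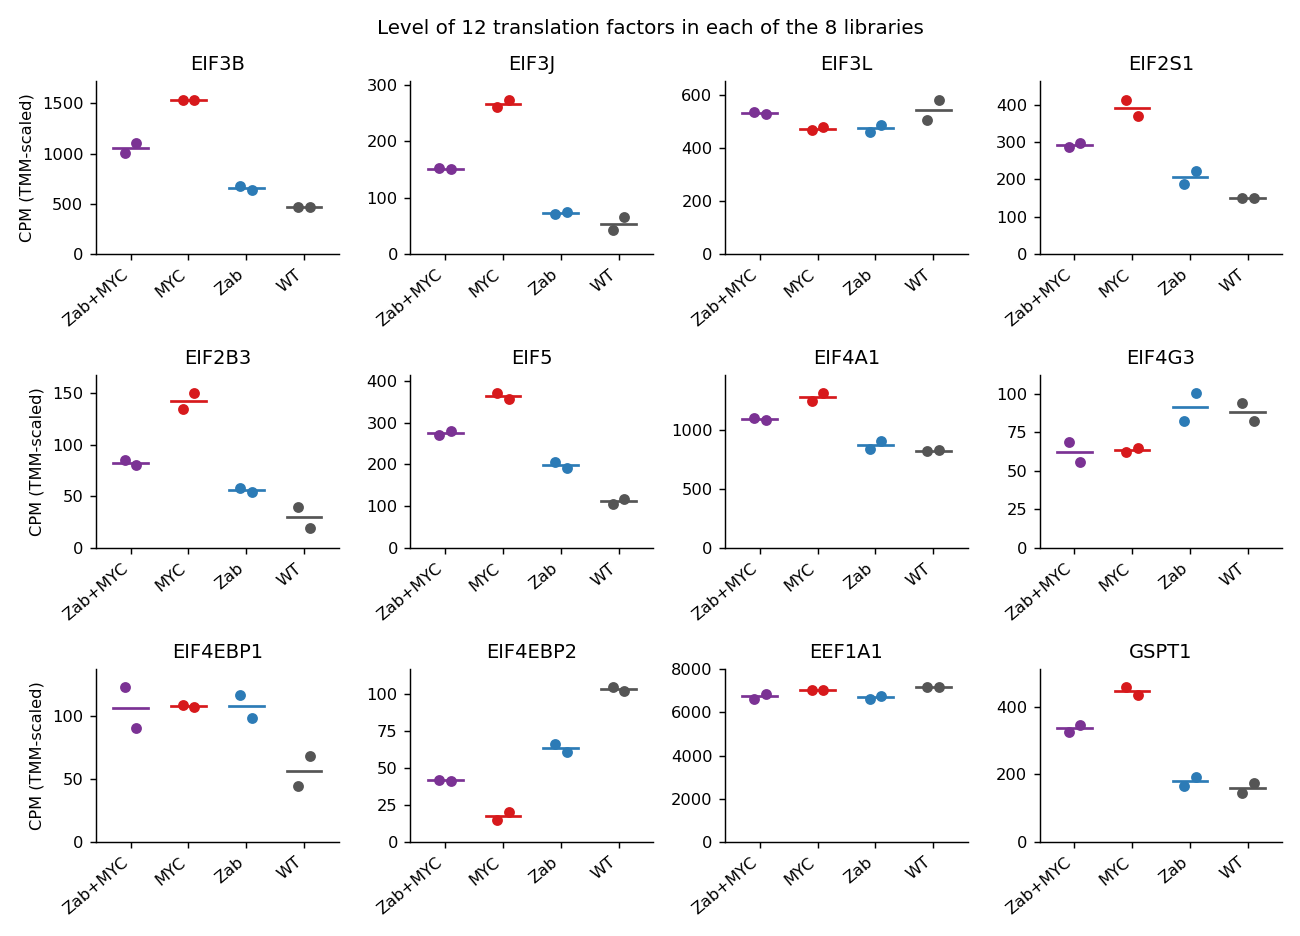
CPM of 12 translation factors in each library (points) with the mean of each group (bars), every axis starting at 0. By group mean EIF3B, EIF3J, EIF2S1, EIF5 and GSPT1 were highest in MYC, next in Zab+MYC and lowest in WT libraries, EEF1A1 was nearly level, and EIF4EBP2 ran the other way, with 14.9 and 20.2 CPM in MYC against 105 and 102 CPM in WT libraries.

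The cap-binding complex moved by gene rather than as a block. Of the helicase and its cofactors 3 of 5 rose, of the cap-binding proteins all 3 tested, and of the scaffolds 2 of 3, while the third fell. EIF4A1, the main eIF4A helicase, had 1106 and 1091 CPM in Zab+MYC libraries, 1248 and 1315 CPM in MYC libraries, 845 and 909 CPM in Zab libraries, and 825 and 829.6 CPM in WT libraries. EIF4A1 (chr17:7476143-7482324 on hg19, plus strand) rose in MYC cells by 0.63 ± 0.0535 (SE), limma adjusted p = 4.7e-17. EIF4A3, a paralog that belongs to the exon junction complex rather than to eIF4F, had 49.6 and 43.2 CPM in Zab+MYC libraries, 59.3 and 59.9 CPM in MYC libraries, 22.2 and 22.6 CPM in Zab libraries, and 23.97 and 20.7 CPM in WT libraries. Libraries with overexpressed MYC lay above those without it, and EIF4A3 rose by 1.34 ± 0.245 (SE), limma adjusted p = 2.6e-06. EIF4A2, the remaining helicase paralog, had 45.3 and 33.3 CPM in Zab+MYC libraries, 49.97 and 51.9 CPM in MYC libraries, 55.2 and 50.8 CPM in Zab libraries, and 63.1 and 45.03 CPM in WT libraries. MYC and WT libraries overlapped, and EIF4A2 at −0.06 was not called. EIF4H, a cofactor of the helicase, had 481 and 477 CPM in Zab+MYC libraries, 496 and 548 CPM in MYC libraries, 315 and 357 CPM in Zab libraries, and 338 and 359 CPM in WT libraries. Groups with overexpressed MYC lay above the others, and EIF4H rose by 0.58, whereas the cofactor EIF4B had −0.16 and was not called. EIF4E, the cap-binding protein, had 47.7 and 65.9 CPM in Zab+MYC libraries, 73.8 and 73.8 CPM in MYC libraries, 47.3 and 38.6 CPM in Zab libraries, and 39.1 and 34.96 CPM in WT libraries. Its rise was 0.96 ± 0.209 (SE), limma adjusted p = 6.3e-05. EIF4E2, which binds the cap without forming eIF4F, had 126 and 131 CPM in Zab+MYC libraries, 185 and 196 CPM in MYC libraries, 133 and 132 CPM in Zab libraries, and 97.8 and 101 CPM in WT libraries. MYC libraries were highest and WT libraries lowest, and EIF4E2 rose by 0.93. EIF4ENIF1, the transporter of eIF4E, had 33.1 and 30.5 CPM in Zab+MYC libraries, 42.97 and 30.5 CPM in MYC libraries, 28.7 and 37.3 CPM in Zab libraries, and 21.4 and 23.3 CPM in WT libraries. It rose by 0.65, and its MYC, Zab+MYC and Zab libraries overlapped. The EIF4ENIF1 call in this comparison was lost without MYC replicate 1, WT replicate 1 or WT replicate 2 (log2 fold change 0.42 to 0.71, limma adjusted p = 0.056 to 0.32).

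EIF4G1, the main scaffold, had 612 and 564 CPM in Zab+MYC libraries, 645 and 652 CPM in MYC libraries, 549 and 537 CPM in Zab libraries, and 404 and 403 CPM in WT libraries. EIF4G2, a scaffold that lacks the eIF4E-binding site, had 749 and 715 CPM in Zab+MYC libraries, 966 and 932 CPM in MYC libraries, 491 and 458 CPM in Zab libraries, and 509 and 541 CPM in WT libraries. EIF4G1 was lowest in WT libraries, while EIF4G2 was lower in both groups without overexpressed MYC. Their rises in MYC against WT cells were 0.68 and 0.85. EIF4G3, the remaining scaffold paralog, had 69.1 and 55.99 CPM in Zab+MYC libraries, 62.6 and 64.6 CPM in MYC libraries, 82.5 and 100.4 CPM in Zab libraries, and 94.00 and 82.6 CPM in WT libraries. Its levels were lower in both groups with overexpressed MYC than in both without it, and the log2 fold change was −0.46 ± 0.173 (SE), limma adjusted p = 0.019 in MYC against WT. The EIF4G3 call in this comparison was lost without MYC replicate 1, MYC replicate 2 or WT replicate 1 (log2 fold change −0.37 to −0.48, limma adjusted p = 0.06 to 0.14).

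The 4E-BPs, small proteins that hold eIF4E away from the scaffold until mTOR phosphorylates them, went opposite ways. EIF4EBP2 had 41.8 and 41.1 CPM in Zab+MYC libraries, 14.9 and 20.2 CPM in MYC libraries, 65.99 and 60.6 CPM in Zab libraries, and 105 and 102 CPM in WT libraries. The groups did not overlap and ran in the order WT, Zab, Zab+MYC, MYC. EIF4EBP2 (chr10:72163901-72188374 on hg19, plus strand) fell in MYC against WT cells, with a log2 fold change of −2.44 ± 0.214 (SE), limma adjusted p = 1.9e-16. The level was thus 5.44-fold lower in MYC than in WT cells on this scale, the largest fall of the 60 genes. EIF4EBP1 had 123 and 90.02 CPM in Zab+MYC libraries, 108 and 107 CPM in MYC libraries, 116 and 98.5 CPM in Zab libraries, and 44.2 and 67.8 CPM in WT libraries. EIF4EBP1 was higher in every other group than in WT, by 0.95 ± 0.168 (SE), limma adjusted p = 1.4e-06 in MYC against WT, and the 3 groups other than WT overlapped with each other. EIF4EBP3 had 6.81 and 11.3 CPM in Zab+MYC libraries, 7.01 and 13.1 CPM in MYC libraries, 7.89 and 7.34 CPM in Zab libraries, and 8.20 and 9.01 CPM in WT libraries. It was below the filter on low values, and its groups overlapped.

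EIF6 and both eIF5A genes rose with MYC. EIF6, which keeps the large ribosomal subunit from joining too early, had 252 and 239.6 CPM in Zab+MYC libraries, 258 and 229.6 CPM in MYC libraries, 154 and 169 CPM in Zab libraries, and 85.8 and 84.8 CPM in WT libraries. Zab+MYC and MYC libraries overlapped, above Zab and then WT, and EIF6 rose in MYC cells by 1.49 ± 0.117 (SE), limma adjusted p = 1.2e-18. EIF5A, the hypusine-bearing factor that helps ribosomes past difficult stretches and at termination, had 445 and 406 CPM in Zab+MYC libraries, 436 and 495 CPM in MYC libraries, 268 and 313 CPM in Zab libraries, and 211 and 199 CPM in WT libraries. Its rise was 1.17 ± 0.0898 (SE), limma adjusted p = 4.1e-19. EIF5A2, its much scarcer paralog, had 15.1 and 9.92 CPM in Zab+MYC libraries, 17.7 and 30.1 CPM in MYC libraries, 15.8 and 12.2 CPM in Zab libraries, and 3.79 and 9.01 CPM in WT libraries. WT libraries were lowest and the libraries of the other 3 groups overlapped in part, and the rise in MYC against WT was 1.66 ± 0.379 (SE), limma adjusted p = 0.00013.

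Of the elongation factor genes, EEF1A1, EEF2 and EEF1G were not called in MYC against WT cells, while EEF1A2, EEF1B2, EEF1D and EEF1E1 rose. EEF1A1, the carrier of aminoacyl-tRNA, had 6644 and 6838 CPM in Zab+MYC libraries, 7019.9 and 7036 CPM in MYC libraries, 6612 and 6782 CPM in Zab libraries, and 7169 and 7174 CPM in WT libraries. Its log2 fold change in MYC against WT was −0.03 ± 0.0236 (SE), limma adjusted p = 0.29, not called, with both MYC libraries just below both WT libraries. EEF2, the translocase, had 632 and 676 CPM in Zab+MYC libraries, 688 and 675 CPM in MYC libraries, 616 and 634 CPM in Zab libraries, and 753 and 701 CPM in WT libraries. EEF2 had −0.09 and was not called. EEF1G, of the exchange factor that recharges eEF1A, had 1832 and 1830.1 CPM in Zab+MYC libraries, 1725 and 1717 CPM in MYC libraries, 1794 and 1666 CPM in Zab libraries, and 1799 and 1871 CPM in WT libraries. Its fold change of −0.09 was not called either. EEF1B2 had 962 and 899 CPM in Zab+MYC libraries, 1094 and 1129 CPM in MYC libraries, 1036 and 1015 CPM in Zab libraries, and 652 and 684 CPM in WT libraries. EEF1D had 1020.4 and 1031 CPM in Zab+MYC libraries, 1040.1 and 989 CPM in MYC libraries, 858 and 983 CPM in Zab libraries, and 830.2 and 869 CPM in WT libraries. Both are nucleotide exchange subunits of that factor, and they rose by 0.73 and 0.26. EEF1A2, the eEF1A paralog typical of muscle and neurons, had 1129.9 and 1272 CPM in Zab+MYC libraries, 1639 and 1589 CPM in MYC libraries, 1036 and 908 CPM in Zab libraries, and 999 and 1081 CPM in WT libraries. EEF1A2 rose by 0.63 ± 0.0543 (SE), limma adjusted p = 7.1e-17, unlike EEF1A1. EEF1E1, a scaffold of the aminoacyl-tRNA synthetase complex, had 45.7 and 35.4 CPM in Zab+MYC libraries, 56.04 and 61.5 CPM in MYC libraries, 42.3 and 18.4 CPM in Zab libraries, and 13.9 and 15.4 CPM in WT libraries. EEF1E1 rose by 1.87 ± 0.273 (SE), limma adjusted p = 1.3e-08.

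Of the enzymes that modify elongation factors, some rose with MYC, and both release factor genes did. EEF2KMT, which methylates eEF2, had 110.0 and 118 CPM in Zab+MYC libraries, 155 and 144 CPM in MYC libraries, 88.2 and 114 CPM in Zab libraries, and 52.4 and 56.7 CPM in WT libraries. MYC libraries were highest and WT libraries lowest, and EEF2KMT rose by 1.42 ± 0.152 (SE), limma adjusted p = 6.6e-13. EEF2K, the kinase that inhibits eEF2, had 0.34 and was not called. EEF1AKNMT, which methylates the start of eEF1A, had 96.8 and 103 CPM in Zab+MYC libraries, 109.8 and 112 CPM in MYC libraries, 63.8 and 70.4 CPM in Zab libraries, and 50.5 and 67.8 CPM in WT libraries. EEF1AKMT4, a lysine methyltransferase of eEF1A, had 16.1 and 24.1 CPM in Zab+MYC libraries, 27.6 and 15.5 CPM in MYC libraries, 7.17 and 11.6 CPM in Zab libraries, and 7.57 and 6.89 CPM in WT libraries. The 2 MYC libraries differed for EEF1AKMT4 and were close for EEF1AKNMT. Their rises were 0.90 for EEF1AKNMT and 1.30 for EEF1AKMT4, and EEF1AKMT3 had 0.10 and was not called. The EEF1AKMT4 call in this comparison was lost without MYC replicate 1 (log2 fold change 0.92, limma adjusted p = 0.11). ETF1, the gene of eRF1, which reads the stop codon, had 124 and 103 CPM in Zab+MYC libraries, 183 and 167 CPM in MYC libraries, 64.6 and 72.8 CPM in Zab libraries, and 48.6 and 50.9 CPM in WT libraries. The 4 groups did not overlap. GSPT1, the gene of the GTPase eRF3, had 325 and 347 CPM in Zab+MYC libraries, 458 and 433 CPM in MYC libraries, 166 and 191 CPM in Zab libraries, and 144 and 175 CPM in WT libraries. Zab and WT libraries overlapped for GSPT1, and both were below the groups with overexpressed MYC. The rises in MYC against WT were 1.77 ± 0.157 (SE), limma adjusted p = 3.2e-16 for ETF1 and 1.47 ± 0.1 (SE), limma adjusted p = 1.1e-21 for GSPT1.

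Levels of paralogs can be compared per length of transcript, in CPM per kilobase. EIF4A1 stood at 476 ± 2.05 in WT cells, above EIF4A2 at 29.00 ± 6.85 and EIF4A3 at 8.93 ± 0.937 (SD, n = 2). EIF4E2, at 75.6 ± 1.54, was above EIF4E, at 3.17 ± 0.287. The transcript kept for EIF4E and EIF4E2 differed between libraries, which moves their lengths. The listed lengths were 954 to 1312 bases for EIF4E2 and 10206 to 11790 bases for EIF4E. By mean CPM in WT cells EIF4E2 had 99.2 and EIF4E 37.0, a smaller gap. Among the scaffolds EIF4G2 had 140.0 ± 6.09, EIF4G1 75.3 ± 0.0823 and EIF4G3 13.8 ± 1.39 CPM per kilobase in WT cells. The scaffold that fell with MYC was therefore the least abundant of the 3. EIF4EBP1 had 131 ± 1.1 CPM per kilobase in MYC cells, against 68.1 ± 20.3 in WT cells. EIF4EBP2 had 2.35 ± 0.499 in MYC cells, against 13.8 ± 0.235 in WT cells, so that per kilobase EIF4EBP1 was above EIF4EBP2 in both groups. By mean CPM the order in WT cells was the reverse, at 103 for EIF4EBP2 and 56.0 for EIF4EBP1. The order per kilobase rests on listed transcript lengths of 7486 bases for EIF4EBP2 and 822 bases for EIF4EBP1. Whether the cells use those lengths was not tested. The highest level of all members was that of EEF1A1, 2009.6 ± 3.17 in MYC cells and 2051 ± 1.05 in WT cells, where EEF1A2 had 918 ± 20.2 and 592 ± 32.7.

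**Figure D3:**
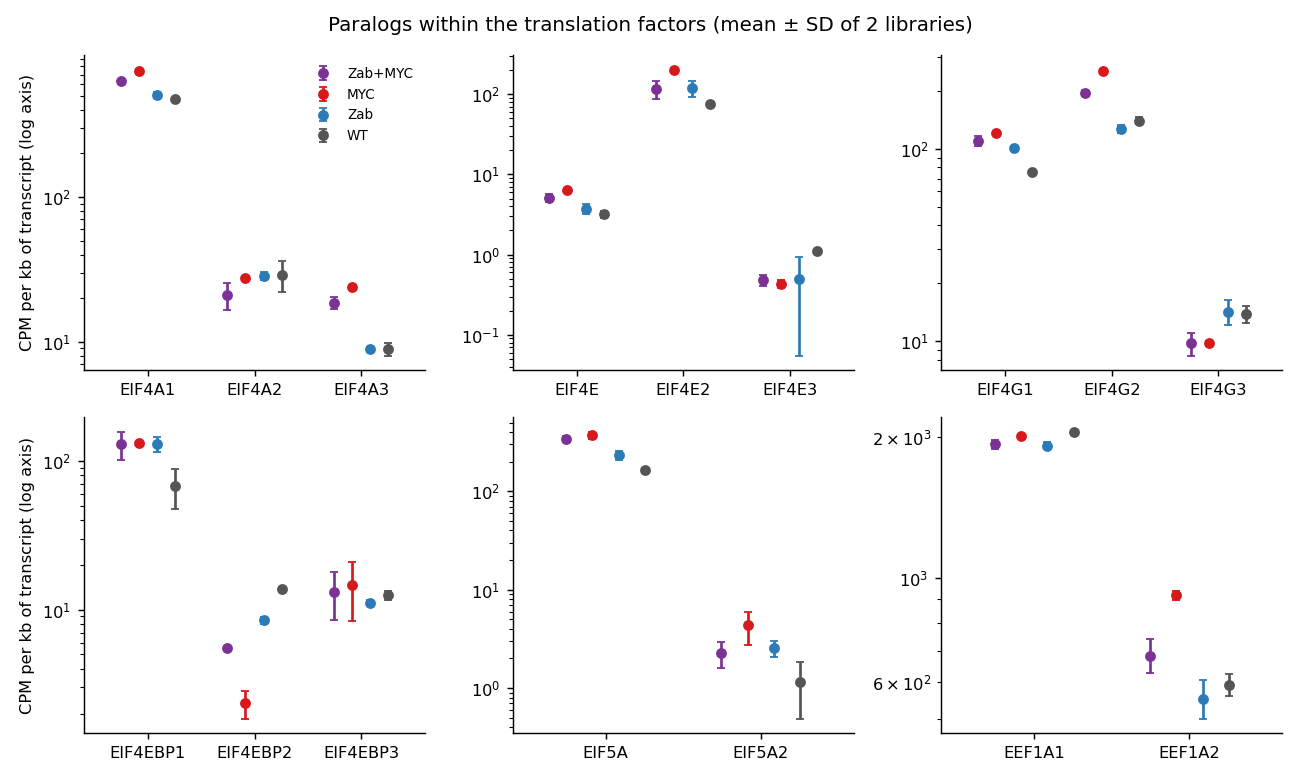
CPM per kilobase of transcript of 6 paralog sets on log axes, mean ± SD of the 2 libraries of each group, with the groups from left to right Zab+MYC, MYC, Zab and WT. EIF4A1, EIF4E2, EIF4G2, EIF4EBP1, EIF5A and EEF1A1 stand highest within their sets in every group.

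Where Zab was present, fewer of these genes rose with overexpressed MYC, and so did fewer of all genes. Over all genes tested 27.8% were called higher in MYC against WT and 14.3% in Zab+MYC against Zab. In Zab+MYC against Zab cells 29 of the 60 rose and 2 fell, where 14.3% of all genes tested were called higher and 12.5% lower, and the members' median log2 fold change was 0.33 against −0.01 over all genes. By at least 1.5-fold 12 were higher and 1 lower, where 8.51% and 9.65% of all genes tested were. RNA of ADAR, the gene that Zab derives from, was lower in Zab+MYC than in Zab libraries, so the level of Zab may not be alike in the 2 groups. Its part in these results was not tested. This comparison shares no library with MYC against WT. All 29 genes called higher here were also called higher there, which is 64.4% of the 45, and none was called in opposite directions. Over all genes tested 1122 were higher in both, which is 41.7% of the 2692 higher in MYC against WT and 81.0% of the 1385 higher in Zab+MYC against Zab, and 38 were higher in the first and lower in the second. The largest rises called with Zab were EIF1AX at 1.33, EIF3J at 1.04, EIF4A3 at 0.98, EEF1AKMT4 at 0.96 and GSPT1 at 0.91. The EEF1AKMT4 call in this comparison was lost without Zab+MYC replicate 1, Zab+MYC replicate 2, Zab replicate 1, MYC replicate 1 or MYC replicate 2 (log2 fold change 0.67 to 1.22, limma adjusted p = 0.053 to 0.32). In all it was lost under 12 of 20 alternatives. EIF4EBP2 and EIF4G3 fell, with log2 fold changes of −0.59 ± 0.214 (SE), limma adjusted p = 0.033 for EIF4EBP2 and −0.53 ± 0.173 (SE), limma adjusted p = 0.015 for EIF4G3. The EIF4EBP2 call in this comparison was lost without Zab+MYC replicate 1, Zab+MYC replicate 2, Zab replicate 1 or Zab replicate 2 (log2 fold change −0.53 to −0.65, limma adjusted p = 0.068 to 0.16). The EIF4G3 call in this comparison was lost without Zab+MYC replicate 2 or Zab replicate 2 (log2 fold change −0.39 to −0.40, limma adjusted p = 0.18 to 0.2). The count of 2 was 0 without Zab+MYC replicate 2, 0 without Zab replicate 2 and 1 without Zab replicate 1. On the scale as deposited limma called 38 higher and 0 lower, with 2 at an unadjusted p under 0.05, where 22.3% and 8.15% of all genes tested were called.

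The difference between those rises was tested itself, as the interaction of MYC and Zab, which subtracts the log2 fold change of MYC against WT from that of Zab+MYC against Zab. It was called below 0 for 30 of the 60 genes and above 0 for 3, where 13.3% of all genes tested were called below 0 and 14.6% above. The interaction shares its libraries with MYC against WT, and all 30 genes below 0 were among the 45 called higher there. How many of all genes called higher there had an interaction below 0 was not counted. The members' median was −0.38, against 0.02 over all genes. At 1.5-fold or more 24 were below 0 and 1 above, where 10.6% and 13.2% of all genes tested were. EIF5A2 and EIF2B3 had the largest negative values, −1.82 ± 0.536 (SE), limma adjusted p = 0.0068 and −1.72 ± 0.279 (SE), limma adjusted p = 9.5e-07. The EIF5A2 call in this comparison was lost without Zab+MYC replicate 2, MYC replicate 2 or WT replicate 1 (log2 fold change −1.35 to −1.56, limma adjusted p = 0.058 to 0.088). EIF5 had −1.21 ± 0.148 (SE), limma adjusted p = 4.1e-10, EIF3J −1.25 ± 0.21 (SE), limma adjusted p = 1.9e-06 and EIF3B −1.02 ± 0.0824 (SE), limma adjusted p = 2.9e-17, each from a rise that remained called where Zab was present. For EIF3E, EIF4E2 and EEF1B2 the interaction was −0.92, −0.97 and −0.87, and their Zab+MYC against Zab values of 0.13, −0.04 and −0.14 were not called on the TMM scale. As deposited EIF3E was called higher in Zab+MYC against Zab, at 0.29, while EIF4E2 at 0.11 and EEF1B2 at 0.02 were not called. By complex the interaction was called below 0 for all 3 eIF2 subunits, 2 of 5 eIF2B subunits, 5 of 8 start site factors, 7 of 14 eIF3 genes, both eIF5A genes, EIF6 and both release factors. It was called for 1 of 5 helicase genes, EIF4A1 at −0.30, and for neither of the tested eEF1A methyltransferases. As deposited it was called below 0 for 2 of 3 eIF2 subunits, 1 of 5 eIF2B subunits, 2 of 8 start site factors and 6 of 14 eIF3 genes. Both eIF5A genes, EIF6 and both release factors were still called there. Of the helicase genes 0 were, also at an unadjusted p under 0.05, with EIF4A1 at −0.09. edgeR and DESeq2, which were not run on the deposited scale, each called 1. EIF1AX at −0.38 ± 0.289 (SE), limma adjusted p = 0.36, EIF4A3 at −0.36 ± 0.347 (SE), limma adjusted p = 0.48 and EIF2B1 at 0.03 ± 0.213 (SE), limma adjusted p = 0.94 were not called, which does not show that MYC acted alike with and without Zab. The 3 genes above 0 were EIF4EBP2 at 1.86 ± 0.302 (SE), limma adjusted p = 9.7e-07, EIF3L at 0.37 ± 0.104 (SE), limma adjusted p = 0.0047 and EEF1G at 0.17 ± 0.0598 (SE), limma adjusted p = 0.021. The EIF3L call in this comparison was lost without WT replicate 2 (log2 fold change 0.26, limma adjusted p = 0.077). The EEF1G call in this comparison was lost without Zab+MYC replicate 1, Zab+MYC replicate 2, Zab replicate 2, MYC replicate 1, MYC replicate 2 or WT replicate 2 (log2 fold change 0.12 to 0.18, limma adjusted p = 0.054 to 0.17). That count was 1 without WT replicate 2. On the scale as deposited 22 genes were below 0 and 5 above, where 8.63% and 21.5% of all genes tested were called and the median of all genes lay 0.20 higher than on the TMM scale. Overexpressed MYC itself was lower in Zab+MYC than in MYC libraries and MYC was higher in Zab than in WT libraries. RNA of ADAR, the gene that Zab derives from, was lower in Zab+MYC than in Zab libraries. The part of these differences in the interaction was not tested.

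**Figure D4:**
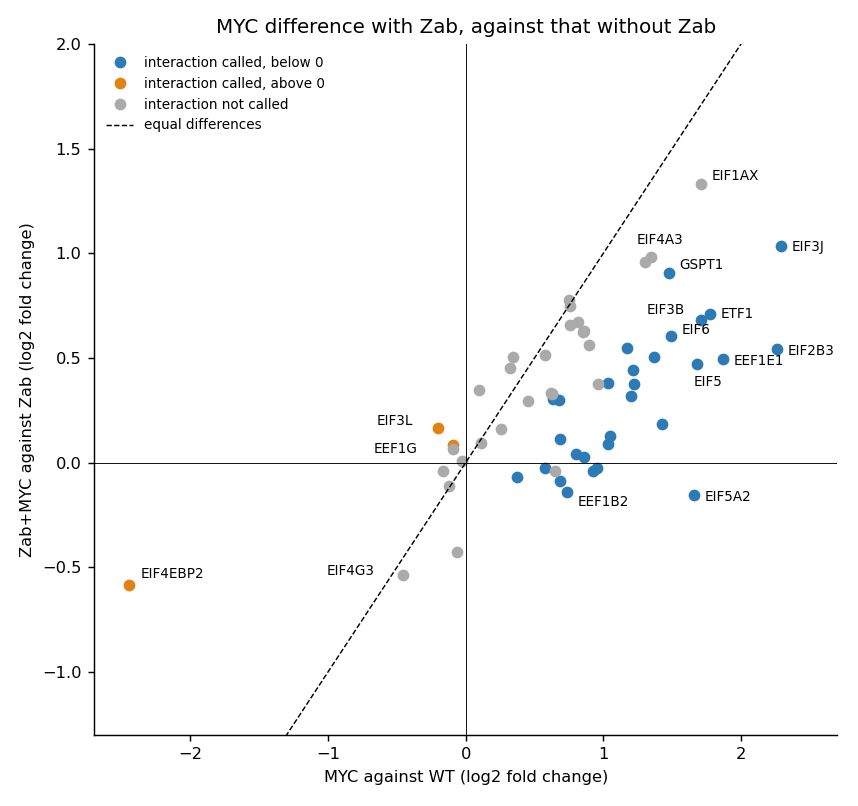
Each point is a tested translation factor, with its log2 fold change in Zab+MYC against Zab on the vertical axis and in MYC against WT on the horizontal axis. Points on the dashed line have equal differences. The 30 genes with a called interaction below 0 lie right of that line, and EIF4EBP2, EIF3L and EEF1G, with one above 0, lie left of it.

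Zab alone went with smaller changes whose direction depended on the scale. On the TMM scale 23 of the 60 genes rose and 4 fell in Zab against WT cells, where 13.1% of all genes tested were called higher and 11.3% lower, and 10 were higher and 1 lower by at least 1.5-fold, where 7.86% and 7.75% of all genes tested were. On the scale as deposited, where the median of all genes lay at −0.51 and that of the members at −0.33, 3 rose and 28 fell, and 2.61% and 49.4% of all genes tested were called. The members were above the median of all genes, with 0.20 against −0.00 on the TMM scale. The deposited scale moves all genes of a library alike, so the same order there is not a second result. The 3 genes called higher on both scales were EIF6, with 0.90 ± 0.117 (SE), limma adjusted p = 2.8e-09 on the TMM scale and 0.37 as deposited, EIF5, with 0.81 ± 0.105 (SE), limma adjusted p = 2.4e-09 and 0.27, and EIF4EBP1, with 0.94 ± 0.168 (SE), limma adjusted p = 7.4e-06 and 0.41. EEF2KMT and EEF1B2 were called higher by 0.86 and 0.62 on the TMM scale and stood at 0.32 and 0.07, not called, as deposited. EIF3B, EIF4G1 and EIF5A were called higher by 0.48, 0.43 and 0.49 on the TMM scale and were at −0.06, −0.12 and −0.05 as deposited. The 4 genes that fell on the TMM scale were EIF4EBP2 at −0.69 ± 0.214 (SE), limma adjusted p = 0.011, EEF2 at −0.22 ± 0.0636 (SE), limma adjusted p = 0.0072, EIF3L at −0.19 ± 0.0733 (SE), limma adjusted p = 0.043 and EEF1A1 at −0.10 ± 0.0236 (SE), limma adjusted p = 0.00084. As deposited they were at −1.22, −0.76, −0.74 and −0.64. The EIF4EBP2 call in this comparison was lost without Zab replicate 2, WT replicate 1 or WT replicate 2 (log2 fold change −0.63 to −0.71, limma adjusted p = 0.058 to 0.079). The EEF2 call in this comparison was lost without Zab replicate 1 or WT replicate 1 (log2 fold change −0.17 to −0.20, limma adjusted p = 0.065 to 0.14). The EIF3L call in this comparison was lost without Zab+MYC replicate 1, Zab+MYC replicate 2, Zab replicate 1, Zab replicate 2, MYC replicate 1, MYC replicate 2 or WT replicate 2 (log2 fold change −0.09 to −0.23, limma adjusted p = 0.052 to 0.52). The EIF3L value in this comparison was −0.30 without WT replicate 1. The count of 4 was 2 when either WT library was left out. None of the 5 helicase genes was called on the TMM scale, where their log2 fold changes ran from −0.06 to 0.08. As deposited 4 of the 5 were called lower, EIF4A1 at −0.46, EIF4A2 at −0.53, EIF4B at −0.51 and EIF4H at −0.60, and 0 higher, also at an unadjusted p under 0.05. edgeR and DESeq2, which were not run on the deposited scale, called 0 higher too. The share of tags in exons was lower in Zab than in WT libraries, and the summed mesenchymal markers ran from 8481 to 8894 CPM in Zab and from 10101 to 10288 CPM in WT libraries, with 4 of the 5 tested called lower. Their part in these results was not tested.

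Zab on top of overexpressed MYC went with lower levels on both scales. In Zab+MYC against MYC cells 1 of the 60 genes rose and 17 fell, where 11.8% of all genes tested were called higher and 8.14% lower, and the members' median log2 fold change was −0.22 against −0.00 over all genes. Without 1 of the Zab+MYC or MYC libraries 3.71% to 4.81% of all genes were called lower, and 12 to 15 of the members (3.71% without MYC replicate 2, 3.81% without MYC replicate 1, 3.99% without Zab+MYC replicate 2 and 4.81% without Zab+MYC replicate 1). The share called higher was 7.13% without Zab+MYC replicate 2 and 7.64% without MYC replicate 1. On the scale as deposited 1 rose and 43 fell, where 5.9% and 30.6% of all genes tested were called and the median of all genes lay at −0.31. Because that scale moves all genes of a library alike, it is not a second test of the members against all genes. This comparison shares the MYC libraries with MYC against WT. The largest falls called were EIF3J at −0.81 ± 0.148 (SE), limma adjusted p = 2.1e-05, EIF2B3 at −0.77 ± 0.197 (SE), limma adjusted p = 0.0026 and ETF1 at −0.61 ± 0.157 (SE), limma adjusted p = 0.0025. The EIF2B3 call in this comparison was lost without Zab+MYC replicate 2 or MYC replicate 2 (log2 fold change −0.69 to −0.73, limma adjusted p = 0.059 to 0.074). The ETF1 call in this comparison was lost without Zab+MYC replicate 2 or MYC replicate 1 (log2 fold change −0.49 to −0.55, limma adjusted p = 0.078 to 0.09). EIF4E2, EIF3E, EIF3B and EIF5B fell as well, with log2 fold changes of −0.56, −0.56, −0.54 and −0.48. By complex 5 of the 14 eIF3 genes fell, 2 of the 3 eIF2 subunits, 2 of the 8 start site factors and both release factors. By at least 1.5-fold 1 gene was higher and 3 were lower, where 9.25% and 2.71% of all genes tested were. The EIF2S1 call here was lost without MYC replicate 1 (log2 fold change −0.34, limma adjusted p = 0.083). The EIF2S2 call here was lost without Zab+MYC replicate 1, Zab+MYC replicate 2, MYC replicate 1 or MYC replicate 2 (log2 fold change −0.25 to −0.27, limma adjusted p = 0.13 to 0.18). The GSPT1 call here was lost without Zab+MYC replicate 1 or MYC replicate 1 (log2 fold change −0.36 to −0.37, limma adjusted p = 0.054 to 0.057). EIF4EBP2 was the gene that rose, at 1.16 ± 0.214 (SE), limma adjusted p = 2.1e-05. EIF6 and EIF2B1, with 0.01 and 0.05, were not called on the TMM scale, and EIF6 was lower as deposited, at −0.31. MYC RNA was lower in the same comparison, at 707 and 705 CPM in Zab+MYC libraries against 1237 and 1289.6 CPM in MYC libraries. The summed mesenchymal markers were higher, at 7622 to 7748 CPM in Zab+MYC against 5308 to 5462 CPM in MYC libraries, with 4 of the 5 tested called higher. The part of either in these results was not tested.

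**Figure D5:**
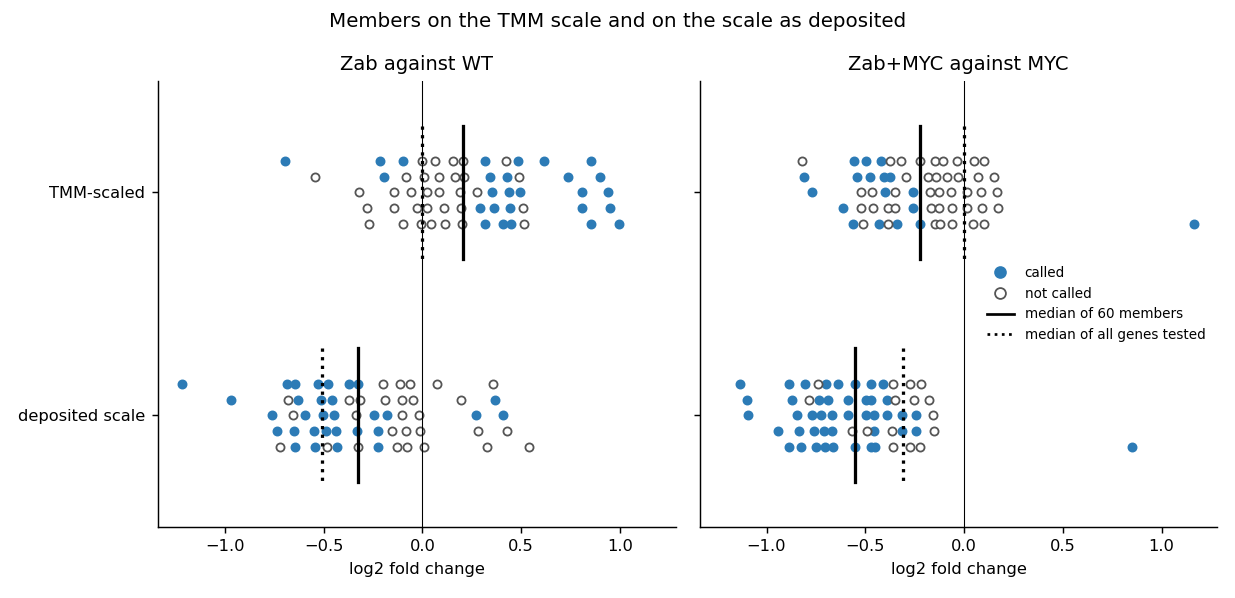
Log2 fold change of the 60 tested translation factors in Zab against WT (left) and Zab+MYC against MYC (right), on the TMM scale (upper row) and as deposited (lower row). Filled points passed the test. The solid bar is the members' median, 0.20 and −0.22 in the upper row and −0.33 and −0.55 in the lower, and the dotted bar the median of all genes tested, which shifts with the scale.

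Other genes of the pathway were counted from lists of regulators and partner factors. Among the enzymes that make hypusine on eIF5A and diphthamide on eEF2, 7 of 9 rose and 1 fell in MYC against WT cells, where 27.8% of all genes tested were called higher and 30.4% lower. DPH2, of the first step of diphthamide synthesis, rose by 2.09 ± 0.175 (SE), limma adjusted p = 2.1e-17. DOHH, the second enzyme of hypusine synthesis, rose by 1.76 ± 0.353 (SE), limma adjusted p = 1.7e-05, and DHPS, the first enzyme, fell, at −0.57 ± 0.154 (SE), limma adjusted p = 0.0012. Of the recycling and reinitiation genes 5 of 8 rose and 0 fell, BZW2 by 1.49 and the ribosome recycling ATPase ABCE1 by 1.45. Of the mitochondrial translation factors 6 of 11 rose and 0 fell, MTIF2, the mitochondrial initiation factor, by 1.88 ± 0.17 (SE), limma adjusted p = 7.6e-16 and the elongation factor GFM1 by 1.27. Regulators of the cap and the poly(A) tail gave 5 higher and 0 lower of 14 tested, a share near that of all genes on the higher side, with LARP1, which binds mRNAs of the translation machinery, at 1.22 and the helicase DDX3X at 1.10. Calls in the last 2 lists were lower in MYC cells. Of the 5 eIF2 alpha kinases and phosphatase subunits tested 3 fell and 0 rose, among them PPP1R15A, which directs a phosphatase to eIF2 alpha, at −0.77 ± 0.264 (SE), limma adjusted p = 0.01 and the kinase EIF2AK2 at −0.46 ± 0.184 (SE), limma adjusted p = 0.029. The PPP1R15A call in this comparison was lost without MYC replicate 2 or WT replicate 2 (log2 fold change −0.60 to −0.69, limma adjusted p = 0.067 to 0.12). The EIF2AK2 call in this comparison was lost without MYC replicate 1 or WT replicate 1 (log2 fold change −0.24 to −0.27, limma adjusted p = 0.31 to 0.39). Both selenocysteine genes tested fell, the elongation factor EEFSEC at −1.16 ± 0.286 (SE), limma adjusted p = 0.00038 and SECISBP2 at −0.69 ± 0.256 (SE), limma adjusted p = 0.018. The SECISBP2 call in this comparison was lost without MYC replicate 1, MYC replicate 2 or WT replicate 2 (log2 fold change −0.39 to −0.70, limma adjusted p = 0.059 to 0.3).

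With Zab present, these lists gave fewer calls, as all genes tested did, here in Zab+MYC against Zab cells. The hypusine and diphthamide enzymes had 2 of 9 higher and 0 lower, the recycling and reinitiation genes 2 of 8 higher and 0 lower, the mitochondrial factors 3 of 11 higher and 0 lower, the cap and poly(A) regulators 3 of 14 higher and 1 lower, the kinases and phosphatase subunits 1 of 5 lower and 0 higher, and the selenocysteine genes 1 of 2 lower and 0 higher. Of all genes tested 14.3% were higher and 12.5% lower, so the counts of 2 and 3 higher in these lists lie near that share. The interaction was called below 0 for 4 of 9, 3 of 8, 3 of 11, 4 of 14, 1 of 5 and 0 of 2 of them, in the same order, and above 0 for 0 of each, against 13.3% and 14.6% of all genes tested. Its largest values were those of DOHH at −1.38 and DPH2 at −1.18, ABCE1 at −1.27 and BZW2 at −1.02, MTIF2 at −1.36 and C12orf65 at −0.77, LARP1 at −1.01 and PABPC4 at −0.93, and EIF2AK2 at −1.01. The DOHH call for the interaction was lost without Zab+MYC replicate 1, Zab+MYC replicate 2, Zab replicate 2, MYC replicate 1, MYC replicate 2 or WT replicate 2 (log2 fold change −1.28 to −1.46, limma adjusted p = 0.052 to 0.12). The C12orf65 call for the interaction was lost without Zab+MYC replicate 1, Zab replicate 1, MYC replicate 2 or WT replicate 1 (log2 fold change −0.64 to −0.72, limma adjusted p = 0.067 to 0.15). The PABPC4 call for the interaction was lost without Zab+MYC replicate 1 or WT replicate 2 (log2 fold change −0.69 to −0.76, limma adjusted p = 0.066 to 0.067). In Zab against WT cells on the TMM scale the counts higher and lower were 4 and 1 of the hypusine and diphthamide enzymes, 1 and 1 of the recycling genes, 2 and 0 of the mitochondrial factors, 6 and 0 of the cap and poly(A) regulators, 1 and 1 of the kinases and phosphatase subunits, and 0 and 0 of the selenocysteine genes, against 13.1% and 11.3% of all genes tested. As deposited they were 0 and 1, 0 and 4, 0 and 1, 0 and 6, 1 and 2, and 0 and 1, in that order, against 2.61% and 49.4% of all genes, and where 0 were called higher 0 had an unadjusted p under 0.05, while edgeR and DESeq2 on their own scaling called up to 6 and 3. For Zab+MYC against MYC cells they were 0 and 1, 0 and 4, 0 and 3, 0 and 3, 1 and 0, and 1 and 0, in the same order, against 11.8% and 8.14% of all genes tested, and as deposited 0 and 4, 0 and 4, 0 and 3, 0 and 5, 1 and 1, and 0 and 0, against 5.9% and 30.6%. Where 0 were called as deposited, 0 had an unadjusted p under 0.05, while edgeR on its own scaling called at most 1 and DESeq2 on its own scaling 0.

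The 8 genes below the filter had few tags. EEF1AKMT1 and EIF4E1B each had 1 tag over all 8 libraries, and EIF2S3B, a close relative of EIF2S3, had 1 tag in each WT library and 0 in the others. EIF4E3, an atypical cap-binding paralog, had 5.35 and 4.25 CPM in Zab+MYC libraries, 2.80 and 2.38 CPM in MYC libraries, 5.02 and 1.84 CPM in Zab libraries, and 11.4 and 11.1 CPM in WT libraries. Its level in both WT libraries was above that in all others. EIF5AL1, a copy of EIF5A whose reads may be shared with it, ranged from 0 to 7.09 CPM, EEF1AKMT2 from 2.45 to 7.93 CPM and EEF1AKMT4-ECE2 from 2.52 to 5.60 CPM. None of the 8 entered the tests above. With no filter on low values EIF4E3 was the only one of the 8 called, lower in MYC against WT cells at −1.53 ± 0.449 (SE), limma adjusted p = 0.012. A filter of 5 CPM in 2 libraries let 4 of the 8 in, and EIF4E3 was again the only one called, lower in MYC against WT and in Zab against WT cells (−1.53 and −1.35, limma adjusted p = 0.0052 and 0.032) and above 0 for the interaction (1.92, limma adjusted p = 0.029). A count of 0 allows up to 3 tags.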

How the data were processed

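Total RNA from 8 libraries, 2 in each of 4 groups taken from the labels, was sequenced, and the authors deposited 1 gene table per library. Per the file headers, tables were made with HOMER's repeat and gene counting tool over exons of RefSeq coding genes on hg19, unnormalised and with transcripts condensed to 1 per gene. The submitters' processing notes list Trim Galore 0.6.6, STAR, HOMER 4.11.1 and the builds hg19 and dm6, with no role for each. The deposited values are a signal: whole multiples of 1 step per library, within 0.1 of a step, so the authors applied 1 factor per library, on a basis the sources used here do not state. A folder in the file headers is named for a spike-in, and whether the factor came from one is not given. Tags were recovered at 2 steps a tag, an assumption that scales all genes of a library alike. No source used here states strand use, and reads of antisense partners cannot be told apart. The transcript listed for a gene was not the same in all 8 libraries for 50.6% of genes.

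limma 3.58.1 (trend) was fitted on log2(CPM + 2) after TMM scaling and edgeR 4.0.16's expression filter, over all 8 libraries with 1 mean per group (4 residual degrees of freedom). The interaction is Zab+MYC minus Zab, less MYC minus WT. DESeq2 1.42.0 and edgeR's quasi-likelihood test on recovered tags were alternatives, with other scalings (the deposited scale among them), pseudocounts, filters, thinning and each library left out. The fit was also run on simulated counts. That cannot show whether p-values hold for libraries whose differences may be technical in origin. R 4.3.3 and Python 3.11.15 were used. Promoters are RefSeq windows on GRCh38.p14, printed without the 50 bases after the start, and no coordinates were converted from hg19. Exons held 686991.5 to 1326166.5 tags per library, and counting limits cover counting error only.

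The genes and lists were chosen with earlier results of these data known. Values in every library are given, by rule, for up to 4 called genes per complex with the largest change in MYC against WT, all genes called lower with MYC or Zab alone, the 10 interactions with the smallest adjusted p, the most abundant gene per complex and the paralog sets. In the other lists genes were named by size of change. Genes named outside the rule were chosen after their values were seen.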

Additional observations from a re-analysis of the deposited data

Results flagged for a closer look

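The difference that overexpressed MYC made to a gene was not the same with and without Zab for 33 translation factors, by the limma test of the interaction itself (adjusted p under 0.05, values as log2 of the MYC difference with Zab minus that without). It was below 0 for 30 of the 60 genes tested and above 0 for 3, against 13.3% and 14.6% of all genes tested. The 30 were all among the 45 genes called higher in MYC against WT, whose libraries the interaction shares. On the scale as deposited 22 were below 0 and 5 above, against 8.63% and 21.5%. EIF1, EIF1AD, EIF2A, EIF2S3, EIF2B5, EIF3I, EIF4A1 and EEF1A2 were not called there. EIF1 was at −0.23, EIF4A1 at −0.09 and EEF1A2 at −0.12 as deposited. The values below are on the TMM scale. Among the start site and scanning factors the value was −0.44 for EIF1, −0.95 for EIF1AD, −1.21 for EIF5, −0.77 for EIF5B and −0.83 for EIF2A. For the eIF2 subunits the value was −0.86 for EIF2S1, −0.60 for EIF2S2 and −0.77 for EIF2S3. In eIF2B the value was −1.72 for EIF2B3 and −0.76 for EIF2B5. Among eIF3 the value was −0.65 for EIF3A, −1.02 for EIF3B, −0.92 for EIF3E, −0.88 for EIF3G, −0.38 for EIF3I, −1.25 for EIF3J, 0.37 for EIF3L and −0.85 for EIF3M. In the helicase genes the value was −0.30 for EIF4A1. For the cap-binding proteins the value was −0.97 for EIF4E2. In the scaffolds the value was −0.57 for EIF4G1. Among the 4E-BPs the value was −0.98 for EIF4EBP1 and 1.86 for EIF4EBP2. For eIF6 the value was −0.89 for EIF6. In the eIF5A genes the value was −0.62 for EIF5A and −1.82 for EIF5A2. Among the eEF1A genes the value was −0.33 for EEF1A2. For the exchange factor of eEF1A the value was −0.87 for EEF1B2 and 0.17 for EEF1G, and it was −1.38 for EEF1E1, of the aminoacyl-tRNA synthetase complex. In eEF2 and its enzymes the value was −1.24 for EEF2KMT. In the release factors the value was −1.06 for ETF1 and −0.57 for GSPT1. The EEF1E1 call was lost without Zab+MYC replicate 2 or Zab replicate 1 (interaction −0.82 to −1.20, limma adjusted p = 0.057 to 0.14). The EIF2S3 call was lost without Zab+MYC replicate 1 or MYC replicate 2 (interaction −0.52 to −0.69, limma adjusted p = 0.085 to 0.16). The EIF2B5 call was lost without Zab+MYC replicate 1, Zab+MYC replicate 2, Zab replicate 1, Zab replicate 2, MYC replicate 2 or WT replicate 2 (interaction −0.34 to −0.86, limma adjusted p = 0.084 to 0.46). The EIF2B5 value was −1.18 without WT replicate 1. The EIF3I call was lost without Zab+MYC replicate 2, Zab replicate 1, MYC replicate 2 or WT replicate 2 (interaction −0.27 to −0.34, limma adjusted p = 0.065 to 0.14). The EIF1AD call was lost without Zab+MYC replicate 1, Zab+MYC replicate 2, Zab replicate 2, MYC replicate 1, MYC replicate 2 or WT replicate 1 (interaction −0.61 to −0.98, limma adjusted p = 0.075 to 0.23). The EIF2A call was lost without Zab+MYC replicate 1, Zab replicate 2, MYC replicate 2 or WT replicate 1 (interaction −0.57 to −0.75, limma adjusted p = 0.081 to 0.17). The EIF5A2 call was lost without Zab+MYC replicate 2, MYC replicate 2 or WT replicate 1 (interaction −1.35 to −1.56, limma adjusted p = 0.058 to 0.088). The EIF3L call was lost without WT replicate 2 (interaction 0.26, limma adjusted p = 0.077). The EEF1G call was lost without Zab+MYC replicate 1, Zab+MYC replicate 2, Zab replicate 2, MYC replicate 1, MYC replicate 2 or WT replicate 2 (interaction 0.12 to 0.18, limma adjusted p = 0.054 to 0.17). Overexpressed MYC was itself at a lower RNA level with Zab than without it, and ADAR RNA was lower in Zab+MYC than in Zab libraries. The part of either in these values was not tested.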

How the results depend on the processing

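Counts of translation factors called are given as higher and then lower. In MYC against WT 45 were higher and 3 lower. Among genes whose transcript did not vary between libraries 29 of 38 were higher, as were 1535 of all 4604 genes in that setting. The lower count was 7 with library totals, 6 on the scale as deposited and 1 with DESeq2. It was also 1 with a threshold of 1.5-fold, added after the data were seen. In Zab against WT the higher count of 23 was 3 as deposited, 12 with DESeq2 and 10 at 1.5-fold, and the lower count of 4 was 7 with library totals, 28 as deposited, 1 with DESeq2 and 1 at 1.5-fold. In Zab+MYC against MYC the higher count of 1 was 3 with library totals and 2 with edgeR, and the lower count of 17 was 43 as deposited and 3 at 1.5-fold. In Zab+MYC against Zab the higher count of 29 was 18 with DESeq2 and 12 at 1.5-fold, and the lower count of 2 was 0 as deposited, where 2 genes had an unadjusted p under 0.05, and 0 with DESeq2, where 1 had, and 1 with no filter, after thinning to the smallest library and at 1.5-fold. For the interaction the count of 3 above 0 was 5 with library totals, 5 as deposited, 1 with DESeq2 and 1 at 1.5-fold. RLE scaling, pseudocounts of 1 and 5 CPM, a filter of 5 CPM in 2 libraries and the 4 libraries compared alone moved none of these counts past 1.5 times. Leaving out each library gave translation factors called of 43 to 46 and 1 to 4 in MYC against WT, 18 to 22 and 2 to 4 in Zab against WT, 1 and 12 to 20 in Zab+MYC against MYC, 23 to 29 and 0 to 3 in Zab+MYC against Zab, and 1 to 3 above and 24 to 30 below 0 for the interaction. The share of all genes called moved with the setting too. In the order MYC against WT, Zab against WT, Zab+MYC against MYC, Zab+MYC against Zab and interaction, DESeq2 called 20.9%, 5.17%, 3.46%, 5.3% and 5.18% of all genes higher and 20.4%, 4.02%, 3.79%, 4.27% and 6.38% lower, counting genes with no adjusted p (0, 6, 6, 6 and 5 of the members) as not called. With library totals 23.9%, 11.7%, 13.8%, 13.0% and 17.2% were higher and 35.1%, 12.9%, 5.89%, 13.7% and 10.8% lower, and with edgeR 29.1%, 11.9%, 12.2%, 13.5% and 15.0% higher and 32.0%, 12.1%, 12.1%, 12.5% and 13.2% lower. Of all genes 7.31% were lower in Zab against WT without WT replicate 1, and 9.39% higher and 8.21% lower in Zab+MYC against Zab without Zab+MYC replicate 2. The causes were not tested.

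Replicate numbers did not pair the libraries, with correlations of deviations from the group means between −0.0128 and 0.0184 over 6974 genes. With the replicate number as a block the translation factors called were 45 and 3, 24 and 4, 1 and 19, 29 and 3, and 3 and 30, in the order MYC against WT, Zab against WT, Zab+MYC against MYC, Zab+MYC against Zab and interaction. The share of promoters with CACGTG was 16.7% (9 of 54) in the 100 bases before to 50 after the start, against 5.32% of coding genes.

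Among genes called on the TMM scale, the deposited scale or both, 24 fold changes as deposited turned against the TMM value in Zab against WT: EEF1D −0.43, EIF1 −0.22, EIF2B1 −0.50, EIF2D −0.45, EIF2S1 −0.10, EIF2S2 −0.20, EIF3A −0.23, EIF3B −0.061, EIF3D −0.33, EIF3E −0.18, EIF3F −0.43, EIF3I −0.33, EIF3J −0.082, EIF3K −0.48, EIF3M −0.19, EIF4A1 −0.46, EIF4B −0.51, EIF4E2 −0.13, EIF4G1 −0.12, EIF4G3 −0.49, EIF5A −0.045, EIF5B −0.25, ETF1 −0.077 and GSPT1 −0.37. In Zab+MYC against MYC 4 did: EEF1D −0.31, EEF1G −0.24, EIF3F −0.24 and EIF6 −0.31. In each case either the TMM call was higher and the deposited value was negative, or the deposited scale alone called the gene lower. More turned without a call. Of the 60 members 44 were above 0 in Zab against WT on the TMM scale and 11 as deposited. In Zab+MYC against MYC 13 were above 0 on the TMM scale and 1 as deposited. No setting other than the deposited scale turned a called direction.

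Members with few tags had the widest errors, and the 8 under the filter entered only the fits with a lower filter or none. A recovered tag rests on the assumption of 2 steps each, and the spread within a group, close to counting noise, lets small differences pass.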
